A study of Abies pinsapo with 12 samples.

Results

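Needles of Abies pinsapo, the Spanish fir, were compared between trees with bluish and trees with green needles, and 7 transcripts of the chromatin group were followed tree by tree. They were 4 methyltransferase transcripts, which the study lists for bluish trees, and 3 transposable element (TE) transcripts, which it lists for green trees. The count table held 76481 assembled transcripts, of which 23352 were tested, and all 7 were found in it and tested. The 7 were selected on their logFC and FDR between the colours in these same libraries, so that difference is described here, and the calls given for it below are no independent test. Their relation to each other among trees of the same colour was not itself a criterion and was tested. That test was not free of the choice where a transcript passed the filter on low levels through only a few trees of a colour, as given below.

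Methylation of histone tails and of DNA sets how tightly a stretch of chromatin is packed and whether it is transcribed. In plants, SET domain proteins transfer methyl groups to histone lysines, and chromomethylase (CMT), a plant DNA methyltransferase, binds methylated histone H3 and methylates cytosines outside the CG context, mostly in transposons. Known from Arabidopsis, this loop keeps retrotransposons silent, and loss of it lets some of them be transcribed. Copia-type retrotransposons, of which Tnt1 of tobacco is the classic case, copy themselves through an RNA that encodes a Pol polyprotein with protease, integrase, reverse transcriptase and ribonuclease H. Whether methyltransferase and transposon transcripts ran in opposite directions across trees was therefore asked of these libraries.

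The libraries came from adult field-grown trees of the Sierra de las Nieves at Yunquera (Spain), 6 with bluish and 6 with green needles, with 1 library for each tree and no treatment. Trees were assigned by the colour of their needles, and developing needles were avoided. Whatever else goes with needle colour in these trees, such as genotype, cannot be told apart from it. The deposited protocol for RNA extraction speaks of roots of pine seedlings, whereas the labels and the paper describe needles. Both transcripts annotated as the small subunit of RuBisCO in the list of needle markers were present in every library, with a summed level of 13.3 to 60.2 CPM (counts scaled to the size of the library). Library totals ranged from 64978939 to 91973481 counts. Most low counts were even, so a read pair was taken as 2 counts, and a count of 0 allowed a level of up to 0.0695 to 0.0908 CPM, counting error only. Green 4 stood apart from the other libraries. In green 4, transcripts with a best database hit in green algae summed to 191 CPM, and to 16.5 to 69.6 CPM in the other 11 libraries, and their part in the results below was not tested.

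The 2 transcripts annotated as histone-lysine N-methyltransferase ASHR1, a SET domain protein named after its Arabidopsis relative, had higher mean levels in bluish trees. The level of ap_12277 was 3.73, 9.20, 8.57, 8.57, 6.72 and 4.54 CPM in bluish trees 1 to 6 and 3.17, 3.45, 3.78, 3.35, 3.66 and 3.25 CPM in green trees 1 to 6. Bluish 2 to 6 lay above the highest green tree. Green trees were nearly uniform, with a mean of 3.44 ± 0.235 CPM (SD, n = 6) and a coefficient of variation (CV) of 6.82%, below the 8.65% that counting error alone would give. Bluish trees averaged 6.89 ± 2.31 CPM (SD, n = 6), with a CV of 33.5% against a counting CV of 6.69%. For ap_12277 the logFC of bluish over green trees was 1.00 ± 0.209 (SE).

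The second ASHR1 transcript, ap_24242, reached 1.65, 5.49, 5.95, 4.85, 3.21 and 1.63 CPM in bluish trees and 1.44, 2.40, 1.44, 0.498, 1.45 and 1.03 CPM in green trees. Bluish 2, 3, 4 and 5 were above every green tree, while bluish 1 and 6 overlapped with the green range. Its logFC was 1.46 ± 0.409 (SE). The same bluish trees were low for both transcripts, and ap_24242 made up 34.0% ± 5.19 (SD, n = 6) of the ASHR1 sum in bluish and 27.6% ± 9.18 (SD, n = 6) in green trees. The lowest share was 12.9%, in green 4. The sum itself was 10.7 ± 4.18 CPM (SD, n = 6) in bluish and 4.82 ± 0.717 CPM (SD, n = 6) in green trees. Whether both are copies of 1 gene or separate genes is not given, and reads shared between near-identical transcripts could have been split by the counting.

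A further SET domain transcript, ap_34496, was either counted well or not at all. It had 170, 245 and 236 counts in bluish 2, 3 and 4 (2.28, 3.54 and 3.56 CPM), 51 counts in green 3 (0.700 CPM) and 0 counts in the other 8 trees. The means were 1.56 ± 1.77 CPM (SD, n = 6) in bluish and 0.117 ± 0.286 CPM (SD, n = 6) in green trees, and the logFC was 3.75 ± 1.81 (SE). The green mean rested on green 3 alone. Without that library every green tree was at 0, so the fitted logFC of 9.87 is no estimate of a fold. Its biological coefficient of variation (BCV), the spread between trees beyond counting error, stood at percentile 99.9 of the transcripts tested. The 3 bluish trees in which it was present were also the 3 with the highest ap_12277 and ap_24242.

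The chromomethylase transcript ap_5633 was high in other trees. Its levels were 1.52, 7.28, 1.01, 0.453, 0.297 and 4.59 CPM in bluish trees and 4.25, 0.278, 0.192, 0.777, 0.398 and 0.363 CPM in green trees. Bluish 2, bluish 6 and green 1 were high, the other 9 trees were at or below 1.52 CPM, and only bluish 2 and 6 exceeded the highest green tree. Green 1 alone held 67.9% of the summed level of green trees. The means were 2.53 ± 2.81 CPM (SD, n = 6) in bluish and 1.04 ± 1.58 CPM (SD, n = 6) in green trees, with a logFC of 1.27 ± 0.915 (SE). Left out singly, the libraries moved this logFC from 0.59 (without bluish 2) to 2.65 (without green 1). In bulk needles, fewer cells of a type and less RNA per cell cannot be told apart, for this and every other transcript.

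The 3 TE transcripts were highest in green 3 and green 4. The transcript ap_21719, whose best hit is a Tnt1-type Pol polyprotein of a Dendrobium orchid, had 2.45, 2.37, 3.12, 4.12, 2.27 and 2.98 CPM in bluish trees. In green trees it had 2.86, 4.63, 11.5, 8.59, 3.96 and 4.39 CPM, so that 4 green trees were above the highest bluish tree. Green 1 fell within the bluish range. The logFC of ap_21719 was −1.06 ± 0.316 (SE) with all libraries and −0.45 ± 0.214 (SE) without green 3 and green 4, an alternative chosen after seeing the data.

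The other Tnt1-type transcript, ap_75667, had 0.586, 0.281, 0.938, 1.10, 1.38 and 0.887 CPM in bluish and 0.773, 1.31, 2.95, 3.11, 1.16 and 1.24 CPM in green trees. The copia protein transcript ap_85660, with its best hit in pigeon pea (Cajanus), had 0.691, 0.254, 0.707, 0.921, 0.818 and 0.487 CPM in bluish and 0.193, 0.706, 3.02, 2.43, 0.527 and 0.938 CPM in green trees. Only green 3 and green 4 reached 2 CPM for either transcript, and the other green trees lay within the bluish range, apart from green 1 (below it) and green 6 (just above it) for ap_85660. The logFC was −1.03 ± 0.441 (SE) for ap_75667 and −1.01 ± 0.590 (SE) for ap_85660. Members of a retrotransposon family share sequence, so reads may have been divided among copies, and the level of a single TE transcript is uncertain for that reason.

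**Figure D1:**
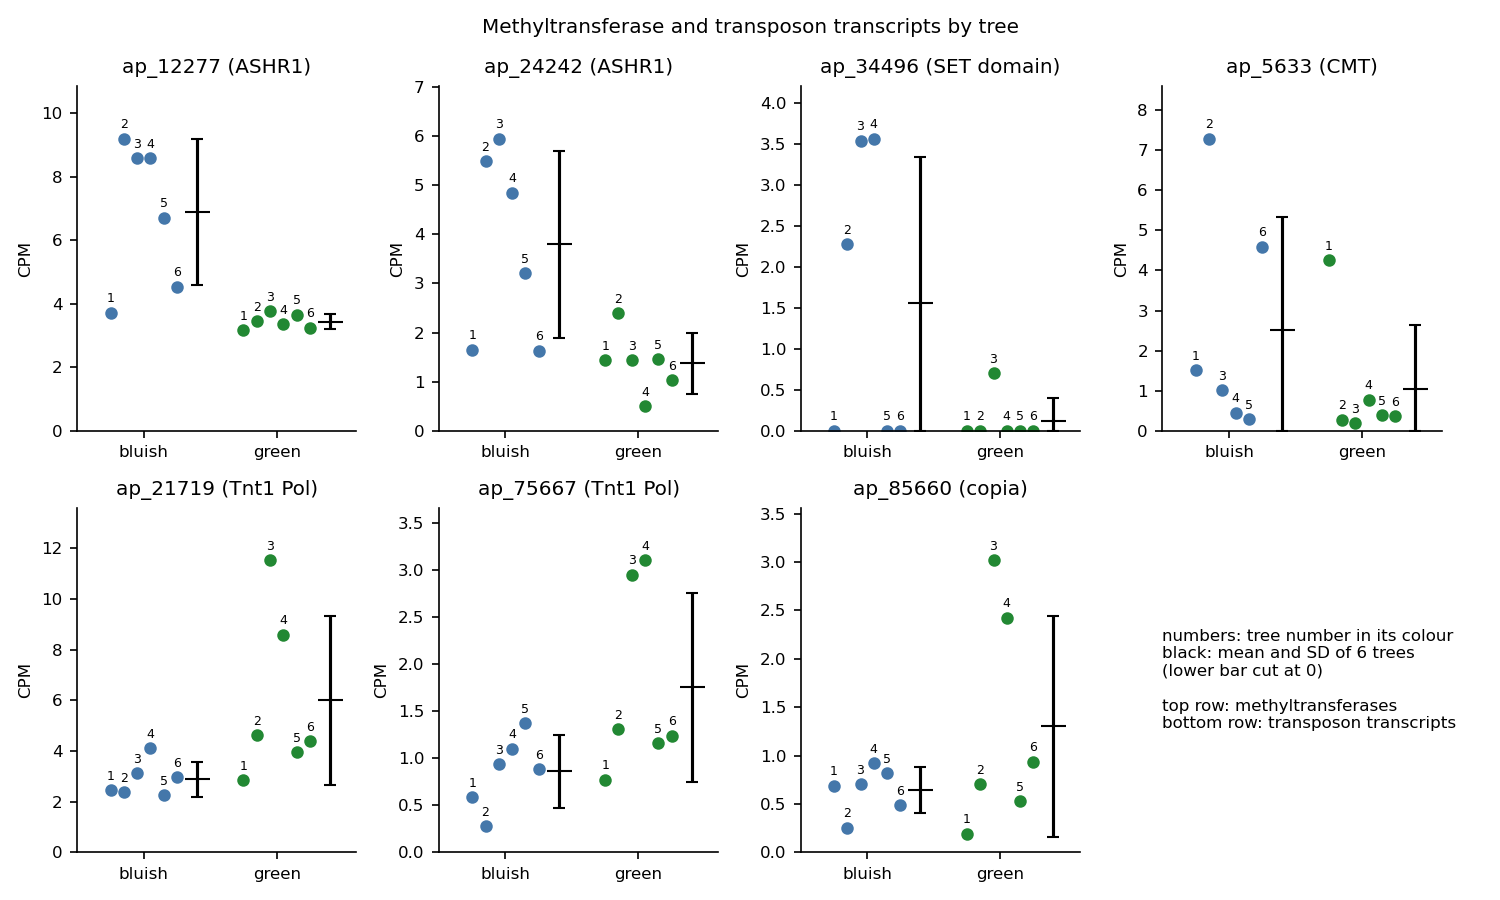
Level of each of the 7 transcripts in CPM (vertical axis, from 0) for 6 bluish and 6 green trees, with the tree number beside each point, and the mean and SD of each colour in black. Green 3 and green 4 are the 2 highest points of all 3 TE transcripts, and ap_34496 is above 0 in 4 trees only.

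These differences were those by which the transcripts were picked, and nothing further is read from them. By edgeR's quasi-likelihood test (FDR under 0.05 and |logFC| over 1), 0 of the 7 were DE transcripts, where 0.00428% of all transcripts tested were called (1 of 23352). At an unadjusted p under 0.05 the count was 4 of 7, against 6.33% of all. DESeq2 called 0 of 7 (0.0942% of all), with ap_12277 at an adjusted p of 0.012 and missed only because its logFC of 1.00 lay just under the limit before rounding. edgeR's exact test with 1 common dispersion called 7 of 7 (1.94% of all), whereas the same test with a dispersion for each transcript and the likelihood ratio test called ap_12277 alone (0.0557% and 0.0642% of all). Several stood at the limit of 1 in |logFC|: ap_12277 at 1.00 and ap_85660 at −1.01 were just inside, and ap_23690, a gag transcript, and ap_88267, a reverse transcriptase or polyprotein, both at −0.91, and ap_74110, a SET domain fragment, at 0.90 were just outside. The filter of at least 2 CPM in at least 2 libraries was passed by ap_75667 and ap_85660 through green 3 and 4 alone and by ap_34496 through bluish 2, 3 and 4 alone, so these had to differ in the direction listed.

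**Figure D2:**
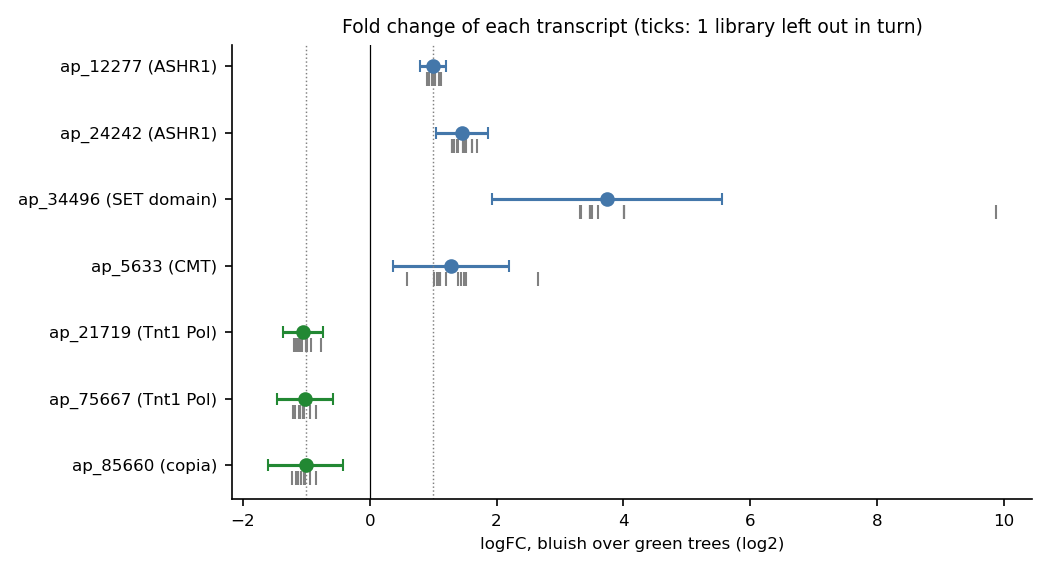
logFC of bluish over green trees (horizontal axis, log2) for the 7 transcripts, with points and bars for the estimate and its SE over 12 libraries, grey ticks for the fit without each library in turn, and dotted lines at −1 and 1. For ap_75667 and ap_85660 there are no ticks without green 3 or without green 4, since they did not pass the filter there. The tick of ap_34496 at 9.87 is the fit without green 3, in which every green tree is at 0, and those of ap_5633 run from 0.59 to 2.65.

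To ask whether methyltransferases and TEs ran in opposite directions, log2 CPM was correlated over the 12 trees with the mean of each colour subtracted. The listed difference between colours thus did not enter. The filter had still favoured certain trees within a colour. It was passed by ap_75667 and ap_85660 through green 3 and green 4 alone, and by ap_34496 through bluish 2, 3 and 4 alone. Tests of pairs that include any of these transcripts are therefore not independent of the choice. Of the 12 methyltransferase and TE pairs, 6 had a negative Pearson r and 6 a positive one. Chromomethylase was negative with all 3 TEs and ap_24242 more weakly so, whereas ap_12277 and ap_34496 were positive with all 3. With 25 relations tested together (permutation of trees within colours, two-sided, Benjamini-Hochberg adjustment), 1 of the 12 pairs passed an adjusted p of 0.05.

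That pair was chromomethylase ap_5633 and copia transcript ap_85660. Their r was −0.68 (permutation p = 0.00966, adjusted p = 0.0483), and Spearman's rho was −0.62 (permutation p = 0.0359, adjusted p = 0.150), which did not pass. Within the colours the r was −0.91 in the 6 bluish trees (exact permutation p = 0.00417, adjusted p = 0.104) and −0.66 in the 6 green trees (exact permutation p = 0.163, adjusted p = 0.482). Without bluish 2 and green 1, the trees whose ap_5633 was farthest from the median, r was −0.24. The size of the r over both colours thus depended on those libraries, and r was not taken within bluish trees without bluish 2. Bluish 2 and green 1 were each the highest of their colour for ap_5633 and the lowest of their colour for ap_85660. The call was also lost when any of the 10 libraries other than green 2 and green 4 was left out singly, with adjusted p between 0.0137 and 0.199 over the 12 such fits, while r stayed between −0.81 and −0.47.

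For chromomethylase and ap_75667 the r was −0.66 (permutation p = 0.0234, adjusted p = 0.0816) and rho −0.58 (permutation p = 0.0588, adjusted p = 0.174), and without bluish 2 and green 1 r was −0.25. With ap_21719 it was −0.42 (permutation p = 0.174, adjusted p = 0.363), with a rho of −0.27 (permutation p = 0.403, adjusted p = 0.593) and an r of −0.04 without the same libraries. The pairs of ap_24242 with TEs had r between −0.30 and −0.15, and those of ap_12277 between 0.02 and 0.21, with adjusted p between 0.583 and 0.965. The SET domain transcript ap_34496 had r of 0.49, 0.04 and 0.20 with ap_21719, ap_75667 and ap_85660 (adjusted permutation p = 0.0816, 0.954 and 0.627), values that were set largely by its presence or absence. In green trees alone ap_12277 had r of 0.49 to 0.58 with TEs, and ap_24242 of −0.52 to −0.38, so the pair of ASHR1 transcripts did not share a sign there.

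**Figure D3:**
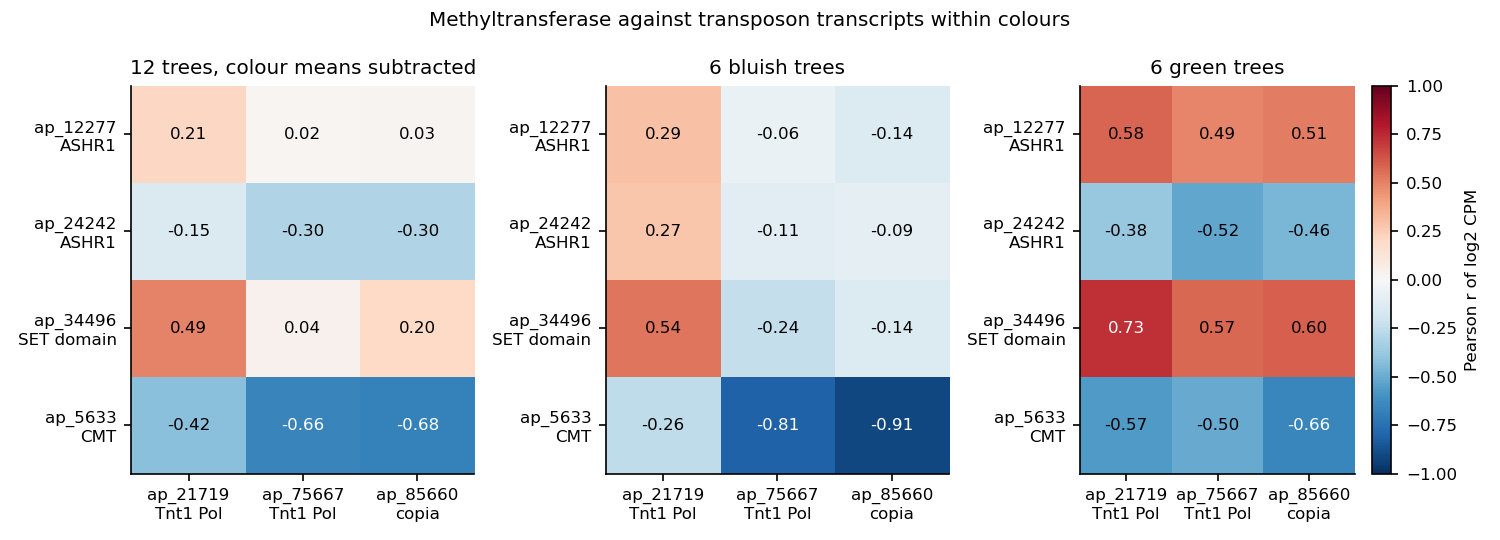
Pearson r of log2 CPM (colour scale, −1 to 1) between each methyltransferase (rows) and each TE transcript (columns) over 12 trees with colour means subtracted, in the 6 bluish trees and in the 6 green trees. The row of ap_5633 is negative in all 3 panels, from −0.26 to −0.91, and the other rows hold both signs over the 3 panels.

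Of the 6 pairs among the methyltransferases, 1 passed, that of both ASHR1 transcripts. The r of ap_12277 with ap_24242 was 0.75 (permutation p = 0.00573, adjusted p = 0.0431), with a rho of 0.69 (permutation p = 0.0222, adjusted p = 0.121). Without bluish 1 and bluish 6, the lowest bluish trees for both, r over both colours was 0.43. The size of that r thus depended on those trees, and r was not taken within bluish trees without them. In the 6 bluish trees r was 0.98 (exact permutation p = 0.00972, adjusted p = 0.122) and in the 6 green trees, where ap_12277 hardly varied, 0.27 (exact permutation p = 0.656, adjusted p = 0.754). With 1 library left out, this pair passed only without green 1 or green 2, with r between 0.69 and 0.89 over all 12 such fits. The r of ap_12277 with ap_34496 was 0.80 (permutation p = 0.0136, adjusted p = 0.0565) and that of ap_24242 with ap_34496 was 0.64 (adjusted permutation p = 0.118). Chromomethylase had r between −0.19 and −0.12 with the other 3 methyltransferases (adjusted permutation p from 0.765 to 0.802).

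**Figure D4:**
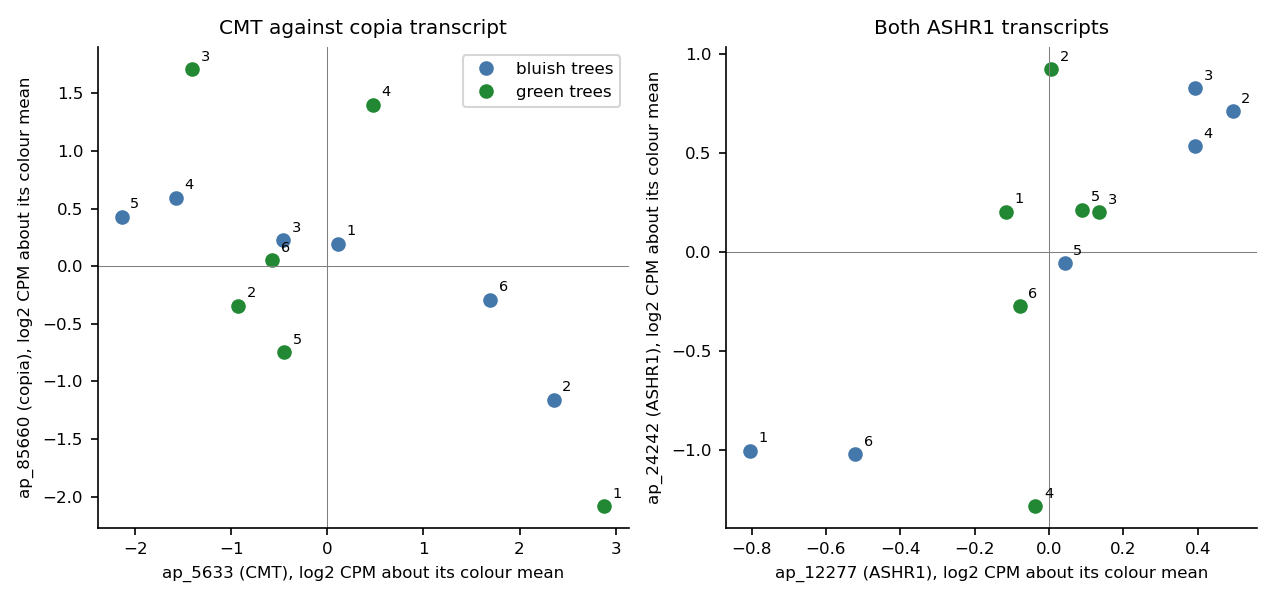
Each point is 1 tree, numbered within its colour, with log2 CPM about its colour mean on both axes, for ap_5633 against ap_85660 (left) and ap_12277 against ap_24242 (right). Bluish 2 and green 1 lie at the lower right of the left panel (r = −0.68 with them and −0.24 without), and bluish 1 and 6 at the lower left of the right panel (r = 0.75 with them and 0.43 without).

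The 3 TE transcripts were positively correlated over the 12 trees. Of these, ap_75667 and ap_85660 passed the filter through green 3 and green 4 alone, and the logFC of ap_21719 was −0.45 without those trees. The choice thus favoured transcripts high together in green 3 and green 4, and the tests of these pairs are not independent of it. The r was 0.75 for ap_21719 with ap_75667 (permutation p = 0.00689, adjusted p = 0.0431), 0.88 for ap_21719 with ap_85660 (permutation p = 0.00240, adjusted p = 0.0300) and 0.88 for ap_75667 with ap_85660 (permutation p = 0.000710, adjusted p = 0.0177). By rank, rho was 0.73, 0.76 and 0.92 (adjusted permutation p = 0.121, 0.121 and 0.0195). In the 6 bluish trees r was 0.39, 0.43 and 0.87 in the same order (exact permutation, adjusted p = 0.948, 0.934 and 0.179), and in the 6 green trees it was 0.98, 0.97 and 0.97 (adjusted p = 0.0694 for each). The first pair had an r of 0.48 without green 3 and green 4 and the second 0.66. For ap_75667 with ap_85660 r was 0.85 without bluish 2 and green 4 (adjusted permutation p = 0.353) and 0.77 without green 3 and green 4 (adjusted permutation p = 0.0566), so its call was lost in both. That pair passed in each of the 12 fits with 1 library left out, ap_21719 with ap_85660 in 6 of them and ap_21719 with ap_75667 in 1, without bluish 5.

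How far the 3 transcripts stand for other TEs was examined in 105 further TE-annotated transcripts of the study's table, 6 that it lists for green trees and 99 that it lists without a call. They were 69 of copia type, 4 of Tf2 type, 4 gag and 28 reverse transcriptases or polyproteins of no named family. The readable part of that table had been kept by the study on these same trees, so the direction of the list is not independent evidence. Of the 99, 91 had a logFC below 0 (91.9%, median −0.65), against 50.9% of all tested (median −0.00377). Among the 1331 other uncalled transcripts of that table, 666 were below 0 (50.0%) and 665 above, with a median of −0.47. None of the 99 could be called, since their logFC ran from −0.91 to 0.81. By the quasi-likelihood test 12 of the 99 had an unadjusted p under 0.05, against 394 of the 1331 and 6.33% of all tested. The 12 became 69 without green 1 and 2 without bluish 1, bluish 2 or green 4. Of the 99, 30 passed the filter only through green libraries and 0 only through bluish ones, against 151 and 66 of the 1331. With at least 2 CPM asked of 2 libraries of each colour (chosen after seeing the data), 44 of 51 were below 0, with a median of −0.65.

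The list followed the same trees as the members. The median of the 105 about each transcript's own mean was 1.30 in green 3 and 1.08 in green 4 on the log2 scale, −1.10 in green 1, −0.72 in bluish 2 and between −0.35 and 0.17 in the other 8 trees. Green 3 was the highest tree for 71 of the 105 (67.6%) and green 4 for 18 (17.1%). They were highest for 19.2% and 10.3% of the 1331 other uncalled transcripts, and for 11.8% and 7.72% of all transcripts tested. Green 1 was the lowest tree for 58 of the 105. Without green 3 and green 4, 46 of the 68 still tested had a logFC below 0, and the median was −0.11. The 4 green trees apart from green 3 and 4 ran from −1.10 to 0.17, and bluish trees from −0.72 to 0.05.

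**Figure D5:**
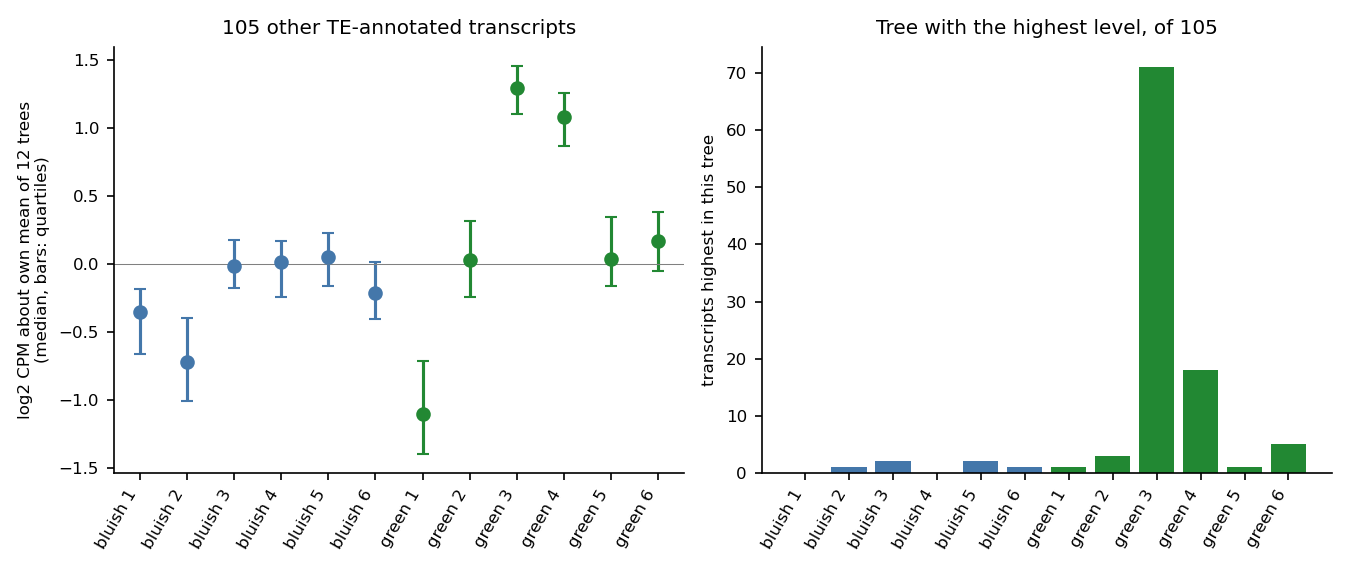
Left, median and quartiles of log2 CPM about each transcript's own 12-tree mean for the 105 other TE-annotated transcripts, by tree. Right, the number of the 105 that are highest in each tree, 71 in green 3 and 18 in green 4.

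The 8 TEs that share a best hit with one of the 3 members gave the closest look at their families. All 8 had a logFC below 0, from −0.83 (ap_34171) to −0.49 (ap_95412), as had 91 of the 99 uncalled TEs to which they belong. All 8 were highest in green 3, as were 71 of the 105. The r of ap_85660 was 0.95 with ap_2273, 0.91 with ap_82749 and 0.94 with ap_95412, the 3 copia transcripts of its own best hit, over 12 trees with colour means subtracted. Of all transcripts, those most like ap_85660 were ap_2287, annotated with an integrase catalytic domain (r = 0.99), and the copia-type ap_380 and ap_1040 (r = 0.99 and 0.98). For ap_75667 they were ap_93741 (r = 0.96), the Tnt1-type ap_458 (r = 0.96) and ap_88580 (r = 0.95), and for ap_21719 they were ap_829 (r = 0.97), ap_9671 (r = 0.95) and ap_90131, a ribonuclease H (r = 0.95). Of the 100 transcripts nearest to ap_21719, ap_75667 and ap_85660, 24, 18 and 26 were in the TE list, which makes up 0.458% of all. The list had been kept by the study on these same trees, so that share is no independent background. Among the list, ap_17684 (−2.60) and ap_1285 (−1.70) had the largest logFC. The best hit of ap_1285 was in Trebouxia, a green alga.

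Set against this wider list, chromomethylase had the most negative correlations of the 4 methyltransferases. Its r with the 108 TE transcripts, members included, had a median of −0.57 and was below 0 for 99 of them (91.7%), where 47.7% of all transcripts had an r below 0 with it. Many of the TE transcripts are correlated with each other, so the 108 are not separate pieces of evidence. For ap_24242 the median r was −0.22, with 95 of 108 below 0 (49.5% of all transcripts). For ap_12277 it was 0.12, with 28 of 108 (50.9% of all), and for ap_34496 0.20, with 14 of 108 (50.6% of all). Without green 3 and green 4, those below 0 were 44, 38 and 60 of 108 in the same order. They were 48, 47 and 60 in bluish trees alone and 100, 6 and 7 in green trees alone. Without bluish 2 and green 1 the median r of ap_5633 was −0.16, with 77 of 108 below 0, and without green 3 and green 4 it was −0.69, with 97 of 108 below 0. In bluish trees alone it was −0.59 and in green trees alone −0.66.

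In the summed CPM of the 105 TEs, ap_76104 and ap_85050 (named after their values were seen), reverse transcriptases or polyproteins of no named family, held 23.8% and 19.6% of the reads. Their part in the values that follow was not tested. With the sum r was −0.49 for ap_12277 (permutation p = 0.0390, adjusted p = 0.0974), −0.64 for ap_24242 (permutation p = 0.0294, adjusted p = 0.0816), −0.22 for ap_34496 and −0.25 for ap_5633 (adjusted p = 0.627 for both). None of the 4 passed. With the median over the 105 in place of the sum, chosen after seeing the data, r was 0.12, −0.26, 0.24 and −0.64 in the same order, with an adjusted permutation p of 0.0520 for ap_5633.

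The wider class of methyltransferases showed no common direction. Of 33 listed transcripts of the GO term methyltransferase activity, 19 were tested, 10 with a logFC below 0 and 9 above (50.9% of all tested were below 0). Their logFC ran from −0.26 to 0.46 with a median of −0.0035. By edgeR's quasi-likelihood test 0 of the 19 were called (0.00428% of all tested) and 0 had an unadjusted p under 0.05 (6.33% of all). DESeq2 called 0 (0.0942% of all). With such shares, counts of 0 among 19 transcripts are not read as a result about them. The largest were ap_8948, at 6.14 ± 1.20 CPM (SD, n = 6) in bluish and 4.47 ± 1.41 CPM (SD, n = 6) in green trees (logFC 0.46 ± 0.221, SE), and ap_10412 (logFC 0.29 ± 0.177, SE). Of 34 transcripts of the term chromosome organization, 23 were tested and 16 had a logFC below 0 (50.9% of all tested), with a median of −0.06. By the quasi-likelihood test 0 were called (0.00428% of all), with 1 at an unadjusted p under 0.05 (6.33% of all).

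The transcripts nearest to the methyltransferases were mostly without a name in the tables read. For ap_12277 they were ap_90235 (r = 0.92), ap_18058 (r = 0.91) and ap_31064 (r = 0.88), for ap_24242 they were ap_15670 (r = 0.94), ap_14319 (r = 0.92) and ap_14581 (r = 0.91), and for ap_5633 they were ap_10390, an uncharacterized protein, ap_8790 and ap_83 (r = 0.97, 0.96 and 0.96). Nearest to ap_34496 were ap_1885, a DUF4283 protein (r = 0.93), ap_87111 (r = 0.92) and ap_70881, a SKP1-like protein (r = 0.91). Of the 100 transcripts nearest to each methyltransferase, 0 were in the TE list, which makes up 0.463% of all.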

How the data were processed

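RNA-seq libraries of needles from 6 bluish and 6 green trees were analysed. The deposited values were raw counts of reads per assembled transcript, which the authors made by mapping read pairs with BWA MEM and counting them with sam2counts, without normalization. Within a colour the chi-square between libraries was 33.6 to 91.7 for each degree of freedom, far above the sampling noise, so the libraries were distinct. The members and lists were chosen with earlier results of these data known, and the transcripts named were the 7 members, TEs with the same best hit, other listed chromatin transcripts, the 2 with the largest |logFC| of each list and the 3 nearest to each member. TE and GO lists came from the readable part of the study's tables.

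Transcripts reaching 2 CPM in 2 or more libraries were kept (98.7% to 99.3% of counts), scaled with TMM and tested with the quasi-likelihood test of edgeR 4.0.16 in R 4.3.3, with Benjamini-Hochberg adjustment over all transcripts. Correlations used log2 CPM with a prior count of 2, colour means subtracted, and 100000 permutations of trees within colours, or all 720 orders within 1 colour (Python 3.11.15, scipy 1.17.1). Both were tested on simulated data. Alternatives were other edgeR tests, DESeq2 1.42.0, other scalings, filters and prior counts, Spearman's rho, a block for the tree number, and leaving out libraries singly. Transcript lengths and sequences were not used here, so a share of a summed CPM is a share of reads and depends on transcript length. Green algal, Carpinus and Anthurium best hits were summed per library. Carpinus hits reached 449 CPM in green 4 (34.2 to 212 CPM elsewhere), and Anthurium hits lay between 8.86 and 135 CPM.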

Additional observations from a re-analysis of the deposited data

Results flagged for a closer look

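Of 14 groups of 6 trees (7 transcripts in 2 colours), 2 had a tree farther from the others by Dixon's ratio (the gap to the nearest value over the whole range) than its 95% critical value allows. By chance about 1 in 20 groups would be picked out. In green trees ap_34496 had a ratio of 1, since green 3 had 51 counts and the other green trees 0. In green trees ap_5633 had a ratio of 0.856, with green 1 at 4.25 CPM and the next highest tree, green 4, at 0.777 CPM. Both were values of the highest tree.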

How the results depend on the processing

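The 7 logFC kept their direction in every fit that tested them, but the transcripts were chosen on that direction, so this is no support for it. Without green 3, without green 4 and without both, ap_75667 and ap_85660 did not pass the filter and had no fit. The number of DE transcripts, 1 in the analysis reported, was 453 with the exact test and a common dispersion, 13 with a dispersion for each transcript, 15 with the likelihood ratio test, 22 with DESeq2, 3 with filterByExpr, 0 with the filter on both colours (1230 at an unadjusted p under 0.05) and 1 to 2 with a library left out. TE-annotated transcripts with a logFC below 0 numbered 43 (of 49) with at least 2 CPM in 6 libraries, 44 (of 51) with the filter on both colours and 70 to 91 (of 78 to 99) with 1 library left out. Without green 3 and green 4 they were 46 of 68 (67.6%), with 22 above 0 against 8 in all libraries. Those with an unadjusted p under 0.05 numbered from 2 (without bluish 1, bluish 2 or green 4) to 69 (without green 1). There were 18 methyltransferase activity transcripts below 0 (of 32 tested) without a filter.

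Pairs called were 0 with Spearman's rho, a prior count of 8, no TMM factors or without the 2 farthest libraries, and 0 to 1 with 1 library left out; with CPM the 1 called was ap_34496 with ap_21719 (r = 0.26). Negative pairs numbered 5 to 10 with 1 library left out. Tree numbers did not pair the libraries (same-number correlations of −0.14 to 0.11, and 3 of 12 libraries closest to their own number). With the tree number as a replicate block, 0 transcripts were called (1412 at an unadjusted p under 0.05), and 12 pairs were negative with 0 called. The r of ap_12277 was then −0.72, −0.75 and −0.75 with ap_21719, ap_75667 and ap_85660 and 0.32 with ap_5633, and that of ap_34496 −0.38, −0.83, −0.61 and 0.21 in the same order.

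Other pairs changed sign as well. Without the 2 farthest libraries r was −0.22 for ap_12277 with ap_75667, 0.17 for ap_24242 with ap_21719, −0.35 and −0.20 for ap_34496 with ap_75667 and ap_85660, 0.17, 0.0512 and 0.22 for ap_5633 with ap_12277, ap_24242 and ap_34496, and 0.00238 and 0.50 for the TE sum with ap_12277 and ap_5633. Without green 3 and green 4 it was −0.0374 and −0.0552 for ap_12277 with ap_75667 and ap_85660, 0.25 for ap_24242 with ap_21719, −0.22 and −0.0902 for ap_34496 with ap_75667 and ap_85660, and 0.019 for ap_34496 with ap_5633. With CPM ap_5633 had r of 0.0668 and 0.0436 with ap_12277 and ap_24242. With the TE median r was 0.12 for ap_12277 and 0.24 for ap_34496. With 1 library left out r ran from −0.15 to 0.40 and −0.0556 to 0.22 for ap_12277 with ap_75667 and ap_85660, −0.28 to 0.11 for ap_24242 with ap_21719, −0.18 to 0.34 and −0.0668 to 0.37 for ap_34496 with ap_75667 and ap_85660, −0.36 to 0.0253 for ap_34496 with ap_5633, and −0.39 to 0.13 for ap_5633 with the TE sum. The cause of these changes was not tested. The counting CV was 18.9% to 22.2% for ap_85660, 16.6% to 24.2% for ap_5633 and 13.3% to 19.8% for ap_75667. For ap_34496 it came to 75.6% in bluish and 121% in green trees. Those values were set by the 3 bluish and 5 green trees with 0 counts, and do not give the counting error where the transcript was present.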

Other observations

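Other chromatin transcripts of the study's table went with neither group as a whole. The chromatin regulator of the PHD family ap_70273, a class of proteins that read histone tails, was at 2.99 ± 0.855 CPM (SD, n = 6) in bluish and 1.72 ± 0.620 CPM (SD, n = 6) in green trees, with a logFC of 0.80 ± 0.27 (SE). Over 12 trees with colour means subtracted its r was 0.78 with chromomethylase and −0.57, −0.68 and −0.71 with ap_21719, ap_75667 and ap_85660. These are descriptions without a test, picked out after the values were seen. The chromo domain transcript ap_21479 was highest in green 3, with r between 0.55 and 0.62 with the 3 TEs. For the SET domain fragment ap_74110 (logFC 0.90 ± 0.58, SE) r was −0.46, −0.29 and −0.30 with ap_21719, ap_75667 and ap_85660. With ap_12277, ap_24242, ap_34496 and ap_5633 its r was 0.19, 0.14, −0.15 and 0.08. Transcripts annotated as histone H2B (ap_85346, logFC −1.78 ± 0.89, SE), as METTL21D, a protein-lysine methyltransferase (ap_76034, logFC −1.15 ± 0.50, SE), and as chromatin assembly factor C (ap_10146, logFC 0.89 ± 0.90, SE) had r between −0.26 and 0.08 with the 3 TEs. None of these was called by edgeR's quasi-likelihood test, which called 0.00428% of all transcripts tested. By the same test 2 of the 6 had an unadjusted p under 0.05, against 6.33% of all. The 6 come from a table that the study kept on these same trees.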
